A study of Homo sapiens with 9 samples.

Results

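The response of the human embryonic stem cell subline HSF-6(8) to butyrate and DZNep given together was measured as 3 arrays of treated cells against 3 arrays of control cells of the same subline. These 6 of the 9 arrays of the series were chosen by their titles, and all 54613 of the 54675 probe sets that are not array controls were considered. Both groups came from 1 line, passaged 11 times with or without the 2 compounds, grown for 6 days and dissociated with TrypLE Express. The other 3 arrays came from the subline HSF-6(S9) with both compounds, which has no untreated arrays. They enter the tests through the filter, the choice of the probe set that stands for a gene and the estimate of the spread. No concentration is given in the labels, and neither compound was given alone, so the effects of butyrate and of DZNep cannot be told apart. The arrays of a group differ in the labels only by prime marks on the titles, which are used here as array numbers 1, 2 and 3; the labels do not say that they came from separate cultures, so the p-values measure the spread between arrays, which may be technical.

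Butyrate, a short-chain fatty acid, inhibits class I and class IIa histone deacetylases, so that acetyl groups remain on histone tails. DZNep (3-deazaneplanocin A) inhibits S-adenosylhomocysteine hydrolase, the enzyme AHCY; the S-adenosylhomocysteine that builds up inhibits methyltransferases, and the compound is known for lowering EZH2, the Polycomb enzyme that methylates histone H3. In embryonic stem cells many regulators of later development carry that mark and are silent, while the pluripotency factors SOX2, NANOG and LIN28 are abundant.

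The deposited value of a probe set is a MAS5 signal, a linear intensity whose overall level is the same on every array. The median signal was 64.8 to 71.6 on the control arrays and 69.3 to 82.9 on the treated arrays, and it serves below as the mark of near-background signal because the files hold no detection calls. Signals below that mark have little meaning relative to each other, so 16 was added before log2 was taken, which understates the change of dim genes. The precision of each value is limited by the number of arrays, 3 per group. Correlations of log2 values over the 13518 tested genes were 0.958 to 0.984 within the controls, 0.950 to 0.985 within the treated arrays and 0.931 to 0.972 between the groups; genes are not independent replicates.

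Markers fitted the label of the cells on all 6 arrays. All 13 measured pluripotent stem cell markers were above the array median on every control and every treated array, and their summed signal was 151545 to 199149 in the controls and 143705 to 155051 in the treated cells. Treated array 3 stood apart in the endoderm, mesoderm and stromal markers. Its summed endoderm signal over 10 markers was 15716, against 2078 to 2731 on the other 2 treated arrays and 1099 to 1617 on the controls. The endoderm sum was thus above every control on all 3 treated arrays. The 7 measured mesoderm markers summed to 7719 on it, against at most 1712 on the other treated arrays and 1131 to 1565 on the controls. For the 14 fibroblast and stromal markers the sum was 56374, against at most 29076 and 27820 to 36869. Of these 14, 10 were above the median on every control array. In 2 other lists treated array 3 lay nearer to the other treated arrays. The 9 neuroectoderm markers summed to 34727.8 on it, against 30316.5 to 30576.1 on the other treated arrays and 25435.5 to 29634.1 on the controls. Its members differed in opposite ways. TUBB3 was highest on treated array 3 (22129, against 14898 and 15980 on treated arrays 1 and 2), while OTX2 was lowest on it (4401, against 8590 and 8231). The 7 measured trophoblast markers summed to 1568 to 2389 on the treated arrays, lowest on treated array 3, and 664 to 1017 on the controls. Of these, GATA3 and HAND1 were above every control on each treated array. KRT7, TFAP2A, CGA, CDX2 and XAGE2 overlapped the controls. The value without treated array 3 is given below for some, not all, of the genes that were brightest on it. The part of the marker lists in other results was not tested. More cells of a type and more RNA per cell cannot be told apart in such samples.

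**Figure D1:**
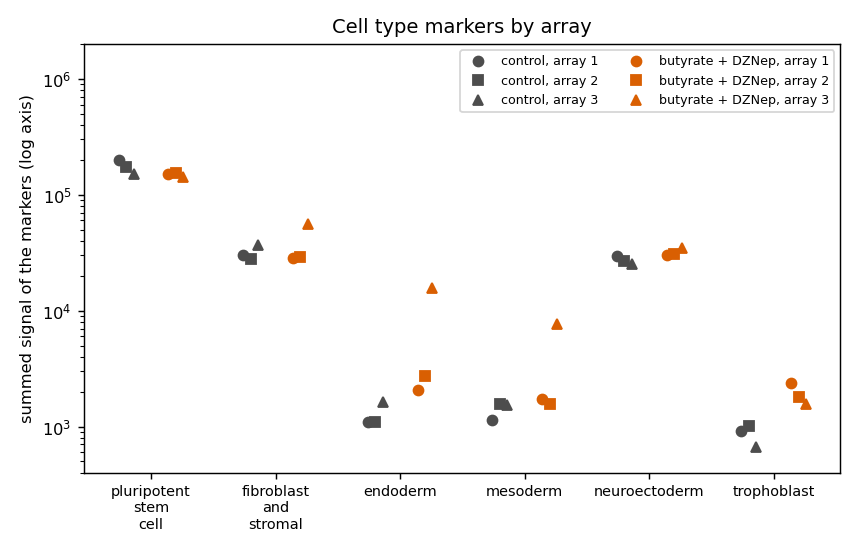
Summed signal of 6 marker lists on each HSF-6(8) array, on a log axis; grey symbols are control arrays, orange symbols are treated arrays, and the symbol shape gives the array number. Treated array 3 (orange triangle) lies above all other arrays for endoderm (15716), mesoderm (7719) and stromal markers (56374), while the pluripotent sums of the 2 groups overlap.

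Treatment mostly raised genes. Of the 13518 genes tested, 101 were higher in treated cells (0.747% of those tested) and 13 were lower (0.0962%), at an adjusted p under 0.05 and at least 2-fold. The median log2 fold change over the 101 was 2.11; 53 rose at least 4-fold and 23 at least 8-fold, while 4 of the 13 falls reached 4-fold. The median over all tested genes was 0.003. The arrays of the 2 groups did not overlap for any of these 114 genes (0.843% of those tested), as was true of 2347 of all tested genes (17.4%). Another 305 genes were at least 2-fold higher and 79 at least 2-fold lower on average without passing the adjusted p. With array number as a block, 138 genes were higher, 94 of them shared with the unblocked test, and 24 were lower, 11 of them shared. Using only arrays 1 and 2 of each group, which leaves out treated array 3, gave 70 higher and 21 lower. Of the 101 rises, 39 were called without each of the 9 arrays in turn, and 4 of the 13 falls were: MBD3L2, GRPR, ADAMTS8 and FLT1.

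**Figure D2:**
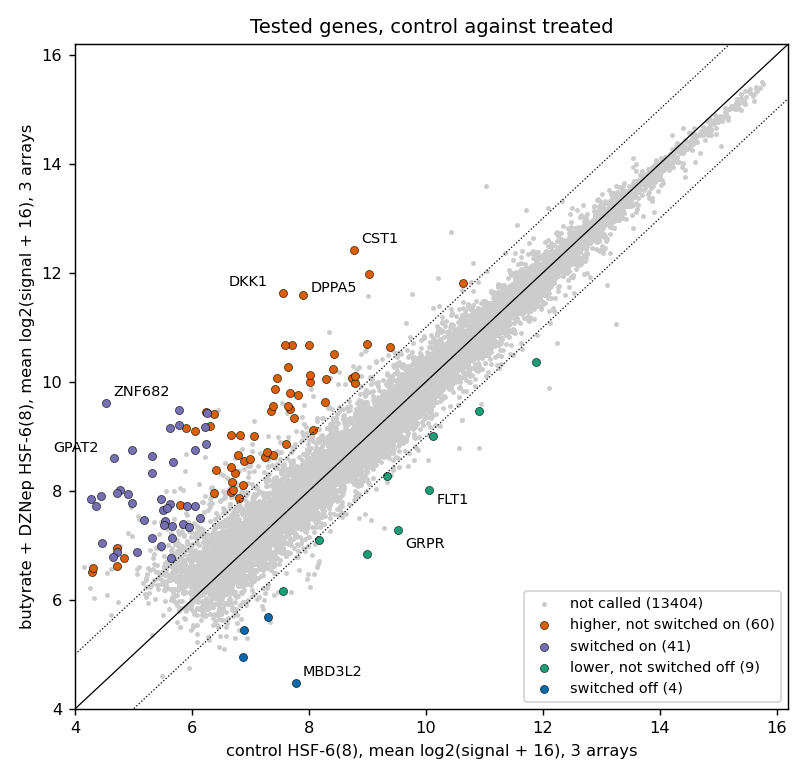
Mean log2(signal + 16) of each tested gene in control (x axis) and treated (y axis) HSF-6(8) cells, 3 arrays each; the solid line marks equal signal and the dotted lines a 2-fold difference. The 101 genes called higher (orange, and violet for the 41 switched on) lie mainly at low to middle control signal, and the brightest genes stay near the line; 13 genes were called lower (green, and blue for the 4 switched off).

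A gene was counted as switched on if it was called higher, all 3 control arrays were below their own median and all 3 treated arrays were above theirs. This held for 41 genes, 0.303% of those tested, and for 24 of them with each of the 9 arrays left out in turn. Of the 266 tested genes that were near background on all control arrays, 46 were called higher (17.3%), against 55 of the other 13252 (0.415%). A gene dark in the controls enters the test mostly because treated arrays brought it above the filter, so the first share is not a measure of how often silent genes respond: 5865 measured genes were near background on all controls. The fitted log2 change of a gene that is near background in one group depends on the constant added: ZNF682 had 5.08 with 16, 6.61 with 1 and 3.54 with 64. So for each switched-on or switched-off gene named with a fitted change a bound follows as "at least", the mean log2 signal of the bright group less the mean log2 array median of the other group, written as a fold. For switched-on genes the bound ran from 1.34-fold (GDA) to 11.1-fold (ZNF682), and 28 of the 41 belong to at least 1 of the 64 functional lists used here.

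**Figure D3:**
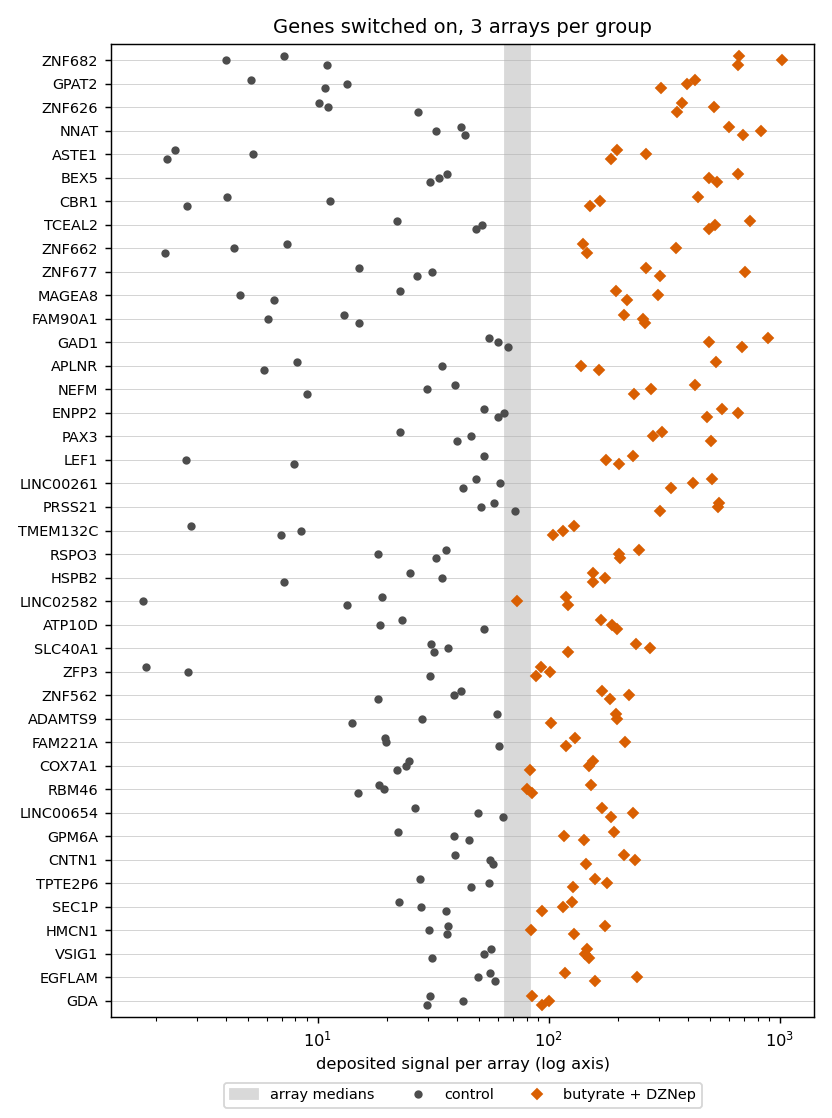
Deposited signal on each array (log axis) of the 41 switched-on genes, ordered by log2 fold change; grey circles are the 3 control arrays, orange diamonds the 3 treated arrays, and the grey band the range of the 6 array medians (64.8 to 82.9). Every control point lies in or left of the band, down to 1.75 (LINC02582), and treated points range from 72.9 (LINC02582) to 1025 (ZNF682).

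The functional lists are shown by the share of tested members that were called. Shares are read against the 0.747% of all tested genes, without a test, because the lists were made with results of these data known.

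**Figure D4:**
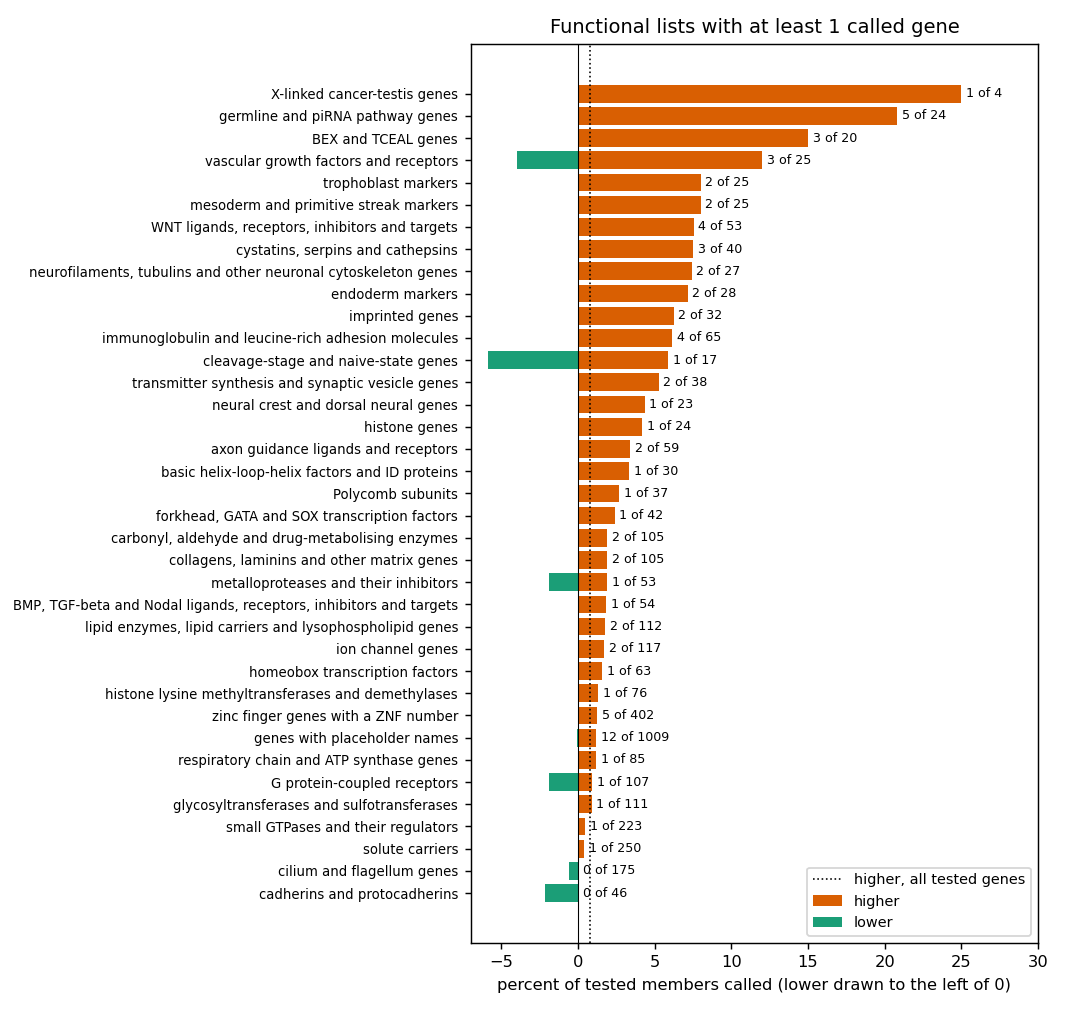
Percent of tested members called higher (orange, to the right) and lower (green, to the left of 0) in each functional list with at least 1 called gene; the number beside a bar is the count of higher genes of those tested, and the dotted line is the 0.747% of all tested genes. Short lists reach high shares with few genes, such as 3 of 25 vascular genes (12.0%), while 5 of 402 ZNF genes gives 1.24%; all 4 tested X-linked cancer-testis genes were near background on every control array and passed the filter through treated arrays, so nothing is read from their bar.

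Zinc finger genes were among the switched-on genes, and with 16 added ZNF682 had the largest fitted change of the called genes. C2H2 zinc finger proteins bind DNA in a sequence-specific way, and those with a KRAB domain recruit the corepressor TRIM28, many of them to transposable elements. ZNF682 had signals of 10.9, 3.99 and 7.12 on the control arrays and 661, 1025 and 666 on the treated arrays. ZNF682 rose by 5.08 ± 0.30 on the log2 scale (adjusted p = 6.83e-05; at least 11.1-fold). It was nearly dark on each control array and well above the median on each treated array. ZNF626, with no tested gene between it and ZNF682 on chromosome 19, had 27.0, 11.1 and 10.2 on the control arrays and 359, 520.3 and 378 on the treated arrays. ZNF626 rose by 3.78 ± 0.32 on the log2 scale (adjusted p = 0.000453; at least 5.97-fold). Of its 3 probe sets, a second rose by 3.32 and the third, which shares probes with other transcripts, by 0.81 on the log2 scale. ZNF677, also on chromosome 19, had 26.8, 31.3 and 15.0 on the control arrays and 302, 703 and 264 on the treated arrays. ZNF677 rose by 3.33 ± 0.38 on the log2 scale (adjusted p = 0.00328; at least 5.53-fold). ZNF662 on chromosome 3 had 2.17, 4.34 and 7.37 on the control arrays and 146, 354 and 140.1 on the treated arrays. ZNF662 rose by 3.36 ± 0.43 on the log2 scale (adjusted p = 0.00662; at least 2.79-fold). Both were highest on treated array 2, and the groups did not overlap. ZNF562 rose less, from a mean signal of 32.8 ± 12.7 (SD, n = 3) to 192 ± 26.7, and lost its call without treated array 2 (adjusted p 0.0599). These 5 are all the called genes among 402 tested ZNF genes (1.24%), all 5 were switched on (ZNF562 at least 2.76-fold) and none fell; the median log2 fold change of the 402 was 0.07. With the block 8 were higher and 1 lower. The zinc finger gene ZFP3 was also switched on (at least 1.35-fold), with 30.5, 2.73 and 1.81 on the control arrays and 87.6, 101 and 92.6 on the treated arrays, but lost its call without control array 2 or 3, any 1 treated array or S9 array 2 (adjusted p 0.0517 to 0.119) and had an adjusted p of 0.0510 with the block.

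A second pair of switched-on genes with no tested gene between them lies on the X chromosome. The BEX and TCEAL genes encode small, related, acidic proteins, are clustered on the long arm of X and are mostly expressed in the nervous system. BEX5 had signals of 30.5, 33.6 and 36.4 on the control arrays and 531, 491 and 657 on the treated arrays. BEX5 rose by 3.53 ± 0.17 on the log2 scale (adjusted p = 3.63e-05; at least 8.02-fold) with the smallest standard error of the 20 largest rises. TCEAL2 had 48.4, 51.1 and 21.9 on the control arrays and 495, 524 and 745 on the treated arrays. TCEAL2 rose by 3.44 ± 0.26 on the log2 scale (adjusted p = 0.000322; at least 8.35-fold). TCEAL7 started around the median, with 67.3, 79.3 and 38.2 on the control arrays and 457, 1096 and 622 on the treated arrays. TCEAL7 rose by 3.20 ± 0.32 on the log2 scale (adjusted p = 0.00160). No array of one group reached the other for any of the 3. They were 3 of 20 tested BEX and TCEAL genes (15.0%), the median of the 20 was 0.10, and none fell.

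The promoter windows of both pairs are printed because the genes of each pair rose together with no tested gene between them, and because CG dinucleotides are the sites of DNA methylation; CG is in capitals and all other bases are in lower case. Windows are from RefSeq on GRCh38.p14, 250 bases before to 50 after the start, 5′ to 3′ on the gene's strand. Of several listed starts the first is shown (2 windows are listed for ZNF682 and for BEX5). ZNF682 is at chr19:20039456-20039755, minus strand; ZNF626 at chr19:20661522-20661821, minus strand; TCEAL2 at chrX:102125429-102125728, plus strand; BEX5 at chrX:102155928-102156227, minus strand.
ZNF682: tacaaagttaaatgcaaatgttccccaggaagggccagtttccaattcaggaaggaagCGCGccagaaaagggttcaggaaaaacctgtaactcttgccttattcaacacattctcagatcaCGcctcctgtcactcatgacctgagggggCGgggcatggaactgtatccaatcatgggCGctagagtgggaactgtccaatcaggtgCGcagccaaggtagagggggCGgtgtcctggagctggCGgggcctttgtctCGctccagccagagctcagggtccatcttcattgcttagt
ZNF626: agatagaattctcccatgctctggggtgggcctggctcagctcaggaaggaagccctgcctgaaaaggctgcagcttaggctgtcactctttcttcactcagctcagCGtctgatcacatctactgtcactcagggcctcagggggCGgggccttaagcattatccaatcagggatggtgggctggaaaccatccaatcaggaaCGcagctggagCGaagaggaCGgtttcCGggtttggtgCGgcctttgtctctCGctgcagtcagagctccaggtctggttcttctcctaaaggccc
TCEAL2: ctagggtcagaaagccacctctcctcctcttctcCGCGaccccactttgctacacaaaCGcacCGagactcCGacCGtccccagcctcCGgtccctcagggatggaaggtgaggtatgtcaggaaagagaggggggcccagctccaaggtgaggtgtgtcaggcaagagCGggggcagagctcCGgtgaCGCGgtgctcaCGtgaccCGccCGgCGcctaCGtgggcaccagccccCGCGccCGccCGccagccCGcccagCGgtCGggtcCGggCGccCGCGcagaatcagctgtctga
BEX5: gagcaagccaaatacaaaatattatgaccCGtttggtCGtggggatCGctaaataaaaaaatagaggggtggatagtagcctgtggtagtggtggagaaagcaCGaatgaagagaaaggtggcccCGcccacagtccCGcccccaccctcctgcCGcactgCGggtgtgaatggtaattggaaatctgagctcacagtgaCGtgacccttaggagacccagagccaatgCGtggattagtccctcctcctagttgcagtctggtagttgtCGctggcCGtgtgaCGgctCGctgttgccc
The ZNF682 window holds 9 CG and that of ZNF626 holds 8, both under the median of 14 over the 35116 windows of the table (quartiles 4 and 28; 96.0% hold at least 1). TCEAL2 holds 27 and BEX5 14. The letters CCAAT, searched on both strands, occur 3 times in the ZNF682 window and 2 times in that of ZNF626, on the printed strand; BEX5 holds them 1 time on each strand and TCEAL2 does not hold them, while 34.6% of all windows hold at least 1. No methylation or binding was measured, and these counts only describe the windows.

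Of the genes of the germ line 5 rose, 1 of them (GPAT2) from near background. Germ cells protect their genome with piRNAs, small RNAs that guide PIWI proteins to transposon transcripts, and many of their genes are methylated and silent in other cells. GPAT2, an outer mitochondrial membrane protein of the acyltransferase family that takes part in piRNA production, had signals of 10.7, 13.3 and 5.13 on the control arrays and 306, 395 and 430.2 on the treated arrays. GPAT2 rose by 3.93 ± 0.24 on the log2 scale (adjusted p = 6.83e-05; at least 5.39-fold). All 3 control arrays were far below the median and the treated arrays lay close together. TDRD12, a tudor-domain helicase of the piRNA pathway, was already above background and rose, with 286, 172 and 181 on the control arrays and 710.3, 795 and 1083 on the treated arrays. TDRD12 rose by 1.95 ± 0.24 on the log2 scale (adjusted p = 0.00592). DPPA5, an RNA-binding protein of early embryos and germ cells, had 251, 231 and 193 on the control arrays and 1589, 5274 and 3442 on the treated arrays. DPPA5 rose by 3.69 ± 0.57 on the log2 scale (adjusted p = 0.0201). Its treated signal varied more than 3-fold between arrays, and the call was lost without any 1 control array or treated array 2 or 3 (adjusted p 0.0571 to 0.0807). NLRP2, a maternal-effect gene of the oocyte, had a mean signal of 116 ± 40.2 in controls and 368 ± 37.7 in treated cells (SD, n = 3; log2 fold change 1.58 ± 0.23, adjusted p = 0.0164), and its call was lost without treated array 1 or 2 (adjusted p 0.0585 to 0.0590). PRDM1, which specifies primordial germ cells and also acts in other lineages, is described with the lineage genes. Together 5 of the 24 tested of 57 measured germline and piRNA genes were higher (20.8%) and none lower, with a median log2 fold change of 0.68 over the 24 and of 0.20 over all 57; 9 of the 24 were at least 2-fold higher. On arrays 1 and 2 alone 2 were called. The medians against the control mean were 0.56, 0.78 and 0.74 on treated arrays 1, 2 and 3.

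Some other genes known from testis were also higher; they come from different lists or none, and no count of such genes was tested. MAGEA8, an X-linked cancer-testis antigen of the MAGE family, had 6.44, 4.61 and 22.7 on the control arrays and 219, 296 and 196 on the treated arrays (log2 fold change 3.25 ± 0.29, adjusted p = 0.000676; at least 3.37-fold), with no overlap of the groups. It was the only called gene of the X-linked cancer-testis list, of which only 4 of 37 measured members passed the filter, all 4 through treated arrays; the median over the 37 was -0.10. PRSS21, the sperm serine protease testisin, had 71.2, 51.0 and 57.8 on the control arrays and 303, 541 and 543 on the treated arrays. PRSS21 rose by 2.62 ± 0.28 on the log2 scale (adjusted p = 0.00202; at least 6.45-fold). FAM90A1, a member of a primate gene family with many copies, had 15.1, 6.07 and 12.9 on the control arrays and 262, 256 and 212 on the treated arrays (log2 fold change 3.25 ± 0.20, adjusted p = 6.83e-05; at least 3.50-fold); its signal could include its near-identical copies. RBM46, an RNA-binding protein needed for spermatogenesis, was barely above the median, with treated signals of 84.8, 80.3 and 152 against 15.0 to 19.4 in controls (at least 1.46-fold), and lost its call without any 1 control array or treated array 1 or 2 (adjusted p 0.0513 to 0.0889). VSIG1, an X-linked adhesion molecule of stomach and testis, rose by 1.40 ± 0.19 (log2; adjusted p = 0.00833; at least 2.12-fold) to 144 to 149 on the 3 treated arrays. Of the 468 tested X-linked genes 8 were higher (1.71%) and 1 was lower.

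In the WNT pathway, in which secreted WNT proteins act through FZD and LRP receptors and beta-catenin on TCF and LEF factors, 4 of 53 tested genes rose (7.55%) and none fell. DKK1, a secreted inhibitor that binds the LRP co-receptors, had signals of 209, 197 and 123 on the control arrays and 2906, 2870.0 and 3736 on the treated arrays. DKK1 rose by 4.07 ± 0.25 on the log2 scale (adjusted p = 6.83e-05). With 16 added this was the second largest rise of the called genes after that of ZNF682, and with 64 added the largest (3.76); each treated array was over 10 times the highest control. WLS, the membrane carrier that brings WNT proteins to the cell surface, had 225, 247 and 98.1 on the control arrays and 1567, 1845 and 1480.0 on the treated arrays (log2 fold change 3.08 ± 0.35, adjusted p = 0.00328), and its 3 probe sets rose by 1.96 to 3.08. RSPO3, a secreted protein that strengthens WNT signalling by stabilising its receptors, was switched on, with 32.6, 18.1 and 35.9 on the control arrays and 202, 201 and 246 on the treated arrays. RSPO3 rose by 2.39 ± 0.30 on the log2 scale (adjusted p = 0.00662; at least 3.11-fold). LEF1, the transcription factor at the end of the pathway, was switched on too, with 7.88, 2.70 and 52.4 on the control arrays and 201, 176 and 232 on the treated arrays. LEF1 rose by 2.80 ± 0.50 on the log2 scale (adjusted p = 0.0405; at least 2.92-fold). Its control array 3 was far brighter than the other controls, and the call was lost without control array 1 or 2, any 1 treated array or S9 array 1 or 2 (adjusted p 0.0514 to 0.142). The called genes thus include an inhibitor, an export factor, an enhancer and a target factor of the pathway. The median over the 53 was 0.09, and 9 were higher and 1 lower at an unadjusted p under 0.05.

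Several genes known from neurons rose; of those described here GAD1, SYT11, NEFL and NEFM belong to the 2 neuronal lists, while NNAT, LGI1 and GPM6A do not. GAD1, which makes the transmitter GABA, was switched on, with 66.6, 60.2 and 55.0 on the control arrays and 682, 492 and 889 on the treated arrays (log2 fold change 3.16 ± 0.25, adjusted p = 0.000357; at least 9.65-fold), and its 3 probe sets rose by 2.45 to 3.16. The neurofilament subunits NEFL and NEFM, structural proteins of axons, are neighbours on chromosome 8 and rose together. NEFL had 94.8, 47.7 and 64.3 on the control arrays and 534, 707 and 768 on the treated arrays. NEFL rose by 3.03 ± 0.25 on the log2 scale (adjusted p = 0.000427). NEFM had 8.99, 29.7 and 39.3 on the control arrays and 233, 277 and 431 on the treated arrays. NEFM rose by 3.00 ± 0.31 on the log2 scale (adjusted p = 0.00190; at least 4.38-fold). Neither gene showed overlap between the groups. NNAT, neuronatin, a paternally expressed imprinted gene of the developing brain, had 43.3, 32.5 and 41.6 on the control arrays and 695, 824 and 603 on the treated arrays. NNAT rose by 3.71 ± 0.31 on the log2 scale (adjusted p = 0.000427; at least 10.1-fold). SYT11, a synaptotagmin of vesicle traffic, had 65.6, 81.9 and 60.3 on the control arrays and 306, 316 and 325 on the treated arrays (log2 fold change 1.97 ± 0.18, adjusted p = 0.000676), the tightest treated group of these genes. LGI1, a secreted synaptic protein, rose by 3.25 ± 0.47 (adjusted p = 0.0151) but lost its call without treated array 1 or 2 (adjusted p 0.0571 to 0.0595). GPM6A, a neuronal membrane glycoprotein, was switched on at 1.69 ± 0.30 (adjusted p = 0.0405; at least 2.12-fold), a call lost without any 1 control array, any 1 treated array or S9 array 1 (adjusted p 0.0776 to 0.119). By list, 2 of 27 neuronal cytoskeleton genes (7.41%; median 0.23) and 2 of 38 transmitter and synaptic vesicle genes (5.26%; median 0.03) were higher.

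A few axon guidance and adhesion genes were also higher. CNTN1, an immunoglobulin-domain contactin of axons, was switched on, with 57.1, 55.5 and 39.3 on the control arrays and 145, 237 and 212 on the treated arrays. CNTN1 rose by 1.67 ± 0.22 on the log2 scale (adjusted p = 0.00740; at least 2.80-fold). SLITRK4, a leucine-rich synaptic adhesion protein on X, had 77.3, 96.8 and 85.5 on the control arrays and 243, 232 and 237 on the treated arrays. SLITRK4 rose by 1.31 ± 0.17 on the log2 scale (adjusted p = 0.00662). FLRT3, a leucine-rich adhesion protein of early embryos, had 196, 173 and 215 on the control arrays and 1163, 1350.4 and 2704 on the treated arrays (log2 fold change 2.96 ± 0.33, adjusted p = 0.00307), highest on treated array 3 (2.60 on the log2 scale without it, adjusted p = 0.00444). CADM1, a synaptic and epithelial adhesion protein, rose by 1.24 ± 0.23 (adjusted p = 0.0474), a call lost without any 1 control array, any 1 treated array or S9 array 1 or 2 (adjusted p 0.0676 to 0.170). These were 4 of 65 tested immunoglobulin and leucine-rich adhesion genes (6.15%; median 0.13). Among 59 axon guidance genes 2 were higher (3.39%). EPHA4, an ephrin receptor, had 108, 175 and 168 on the control arrays and 676, 700.1 and 694 on the treated arrays (log2 fold change 2.11 ± 0.34, adjusted p = 0.0237), lost its call without any 1 control array, any 1 treated array or S9 array 1 (adjusted p 0.0534 to 0.0909), and its 4 probe sets ranged from -0.34 to 2.11. NTN1, the secreted guidance cue netrin-1, rose by 1.58 ± 0.27 (adjusted p = 0.0360) and lost its call without any 1 control array, treated array 2 or 3 or S9 array 2 (adjusted p 0.0514 to 0.148). Of 117 ion channel genes, CACNA1A (1.76 ± 0.29, adjusted p = 0.0257) and KCNAB2 (1.06 ± 0.19, adjusted p = 0.0445) were called higher (1.71%). CACNA1A, a pore subunit of presynaptic calcium channels, lost its call without control array 2, any 1 treated array or S9 array 1 (adjusted p 0.0524 to 0.0960); KCNAB2, a potassium channel subunit, lost it without any 1 control array, any 1 treated array or any 1 S9 array (adjusted p 0.0538 to 0.186) and had an adjusted p of 0.0505 with the block.

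Regulators of different lineages were higher, each by few called genes. GATA3, a zinc finger factor of trophoblast, ectoderm and T cells, had 179, 126 and 154 on the control arrays and 661, 809 and 758 on the treated arrays (log2 fold change 2.17 ± 0.21, adjusted p = 0.00130), and its 3 probe sets rose by 1.36 to 2.17. PAX3, a homeobox factor of the dorsal neural tube, neural crest and muscle precursors, was switched on, with 39.9, 46.2 and 22.7 on the control arrays and 501, 282 and 308 on the treated arrays. PAX3 rose by 2.85 ± 0.51 on the log2 scale (adjusted p = 0.0405; at least 5.08-fold). It lost its call without any 1 control array, any 1 treated array or S9 array 1 (adjusted p 0.0736 to 0.132), and its other kept probe set was at -0.12. No tested gene lies between PAX3 and EPHA4 on chromosome 2. PRDM1 had 145, 153 and 154 on the control arrays and 306, 336 and 570.3 on the treated arrays (log2 fold change 1.28 ± 0.22, adjusted p = 0.0378), was highest on treated array 3 (1.01 on the log2 scale without it, adjusted p = 0.0313), and lost its call without any 1 control array, treated array 2 or any 1 S9 array (adjusted p 0.0528 to 0.133); its 3 probe sets ranged from -0.53 to 1.28. ID3, an inhibitor of helix-loop-helix factors and a target of BMP signalling, had 1529.8, 1820.4 and 1398 on the control arrays and 3204, 3390.1 and 4177 on the treated arrays. ID3 rose by 1.17 ± 0.20 on the log2 scale (adjusted p = 0.0331). BMP2, a ligand of that pathway, had 300.4, 307 and 382 on the control arrays and 1019, 1151 and 2543 on the treated arrays (log2 fold change 2.08 ± 0.38, adjusted p = 0.0445) and was more than 2 times as bright on treated array 3 as on the others (1.68 on the log2 scale without it, adjusted p = 0.0649). ID3 lost its call without any 1 control array, any 1 treated array or S9 array 1 (adjusted p 0.0627 to 0.122), and BMP2 without any 1 control array, any 1 treated array or S9 array 1 (adjusted p 0.0601 to 0.147). APLNR, the apelin receptor of mesoderm and vessels, was switched on, with 5.86, 34.6 and 8.12 on the control arrays and 165, 137 and 527 on the treated arrays (log2 fold change 3.05 ± 0.48, adjusted p = 0.0213; at least 3.30-fold); it too was brightest on treated array 3 (2.48 on the log2 scale without it, adjusted p = 0.0227) and lost its call without control array 1 or 3 or S9 array 2 (adjusted p 0.0511 to 0.0840).

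Few lineage markers were called, and no list was tested as a whole. Medians are given over the members that passed the filter, then over all measured members. Of 28 tested endoderm markers 2 were higher (7.14%; FLRT3 and PRDM1), 25 had a positive change and 14 were at least 2-fold higher, with medians of 0.97 and, over 36 measured, 0.85. Against the control mean the endoderm median of the 28 was 0.61, 0.76 and 1.90 on treated arrays 1, 2 and 3. Without treated array 3 there were 4 called higher, and with the block 6. Mesoderm and primitive streak markers had 2 of 25 higher (8.00%), medians of 0.68 and 0.37, and 0.45, 0.59 and 0.95 by treated array over the 25. Trophoblast markers had 2 of 25 (8.00%), GATA3 and SLC40A1, medians of 0.63 and 0.36, and 0.48, 0.55 and 0.65 by treated array. Neuroectoderm markers had none of 21 called by limma, 18 positive, 9 higher at an unadjusted p under 0.05, and medians of 0.74 and 0.46; the block gave 1 and arrays 1 and 2 alone gave 4. PAX3 is not in that list but is among the neuroectoderm markers of the plot of summed signals. Neural crest and dorsal neural genes had 1 of 23, PAX3, and medians of 0.22 and 0.17. Fibroblast and stromal markers had none of 31 called, 9 higher and 1 lower at an unadjusted p under 0.05, and medians of 0.44 and 0.37; by treated array the median of the 31 was 0.10, -0.02 and 0.87. The endoderm, mesoderm and stromal medians were thus highest on treated array 3.

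The stem cell programme itself was not called changed. None of 40 pluripotency network genes passed, 3 were lower at an unadjusted p under 0.05, and their median was -0.24 with 11 of 40 above 0. SOX2 had 27005, 23263 and 20145 on the control arrays and 23042, 23348 and 15792 on the treated arrays. SOX2 differed by -0.19 ± 0.26 on the log2 scale (adjusted p = 0.944). NANOG had 8647, 9070.4 and 8598 on the control arrays and 5605, 4915 and 8911 on the treated arrays. NANOG differed by -0.48 ± 0.25 on the log2 scale (adjusted p = 0.620). LIN28B had 8506, 8544 and 7117 on the control arrays and 8247, 8349 and 6641 on the treated arrays (log2 fold change -0.06 ± 0.17, adjusted p = 0.986) and DPPA4 had 29153, 25109 and 18562 on the control arrays and 19839.9, 22619 and 16937 on the treated arrays. DPPA4 differed by -0.28 ± 0.29 on the log2 scale (adjusted p = 0.908). For SOX2, LIN28B and DPPA4 the groups overlapped; NANOG was lower on treated arrays 1 and 2 and at the control level on treated array 3. LEFTY1, a secreted inhibitor of Nodal, showed the same split far more strongly, with 11324, 9819 and 8256 on the control arrays and 1382, 833 and 8231 on the treated arrays. LEFTY1 differed by -2.19 ± 0.68 on the log2 scale (adjusted p = 0.256). Without treated array 3 it fell, at a log2 fold change of -3.16 (adjusted p = 0.00288), as did NODAL itself, the ligand (2177, 2053 and 1946 against 763 and 746, with 3661 on treated array 3; -1.43, adjusted p = 0.00701). Both were named after their values were seen. That fit called 30 genes lower, of which 8 were among the 13, and 3 of the 40 pluripotency genes; the contractile gene ACTG2 was another (1070.4, 1370.4 and 2261 on the control arrays and 191, 312 and 1276 on the treated arrays; -2.54 without treated array 3, adjusted p = 0.0183).

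3 secreted inhibitors of proteases rose. CST1, CST2 and CST4 encode the salivary cystatins, inhibitors of cysteine proteases, and are neighbours in the cystatin cluster on chromosome 20. CST1 had 582, 467 and 272 on the control arrays and 5082, 5296 and 6037 on the treated arrays. CST1 rose by 3.65 ± 0.39 on the log2 scale (adjusted p = 0.00219). CST4 had 453, 161 and 185 on the control arrays and 1477, 1491 and 1949 on the treated arrays. CST4 rose by 2.68 ± 0.42 on the log2 scale (adjusted p = 0.0201). CST2 had 227, 272 and 233 on the control arrays and 976, 741 and 1400.4 on the treated arrays. CST2 rose by 1.98 ± 0.30 on the log2 scale (adjusted p = 0.0170). All treated arrays were above all control arrays for each. The 3 transcripts are close in sequence, and the CST2 probe set shares probes with others, so their signals may not be independent. CST4 lost its call without control array 2 or 3 or any 1 treated array (adjusted p 0.0586 to 0.0846), and CST2 without any 1 control array or treated array 1 (adjusted p 0.0533 to 0.0731). These were the only 3 called of 40 tested cystatins, serpins and cathepsins (7.50%; median 0.24; 5 with the block). With them, chromosome 20 held 10 higher genes of 392 tested (2.55%), including NNAT, FLRT3, BMP2, ASXL1 and the long noncoding RNAs LINC00261 and LINC00654.

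The extracellular matrix changed in few genes. FBN2, fibrillin-2 of embryonic microfibrils, had 176, 211 and 178 on the control arrays and 783, 1179 and 723 on the treated arrays. FBN2 rose by 2.13 ± 0.24 on the log2 scale (adjusted p = 0.00345), while its second kept probe set was at 0.32. EFEMP1, fibulin-3, rose by 1.04 ± 0.19 (adjusted p = 0.0405), a call lost without any 1 control array, any 1 treated array or S9 array 1 or 3 (adjusted p 0.0504 to 0.178). They were 2 of 105 tested matrix genes (1.90%; median 0.16); the block gave 5 higher and 1 lower. HAS2, which makes hyaluronan, had 151, 264 and 155 on the control arrays and 678, 1059 and 2555 on the treated arrays (log2 fold change 2.64 ± 0.42, adjusted p = 0.0227), was brightest on treated array 3 (2.11 on the log2 scale without it, adjusted p = 0.0165) and lost its call without control array 1 or 3, treated array 2 or S9 array 1 or 2 (adjusted p 0.0508 to 0.0905). HMCN1, hemicentin-1, and EGFLAM, pikachurin, both matrix proteins, were switched on at 1.48 ± 0.27 (adjusted p = 0.0405; at least 1.78-fold) and 1.37 ± 0.26 (adjusted p = 0.0482; at least 2.39-fold). HMCN1 lost its call without any 1 control array, treated array 1 or 3 or any 1 S9 array (adjusted p 0.0508 to 0.147); EGFLAM lost it without any 1 control array, treated array 1 or 2 or any 1 S9 array (adjusted p 0.0606 to 0.165) and had 0.0510 with the block. The related metalloproteases ADAMTS9 and ADAMTS8 went opposite ways. ADAMTS9, which cleaves proteoglycans, was switched on (log2 fold change 1.91 ± 0.36, adjusted p = 0.0497, at least 2.28-fold), while ADAMTS8 fell. The ADAMTS9 call was lost without control array 1 or 2, any 1 treated array or any 1 S9 array (adjusted p 0.0527 to 0.186). The second kept ADAMTS9 probe set was at 0.57.

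Genes of blood vessels also went both ways. VWF, the clotting factor of endothelium, had 30.6, 72.8 and 25.4 on the control arrays and 287, 160.1 and 169 on the treated arrays. VWF rose by 1.95 ± 0.35 on the log2 scale (adjusted p = 0.0405). PDGFC, a platelet-derived growth factor, had 372, 454 and 449.7 on the control arrays and 1132, 948 and 1199.6 on the treated arrays. PDGFC rose by 1.33 ± 0.22 on the log2 scale (adjusted p = 0.0297). Both moved clear of the controls, but VWF lost its call without control array 1 or 3, any 1 treated array or any 1 S9 array (adjusted p 0.0508 to 0.142), and PDGFC without any 1 control array, any 1 treated array or S9 array 1 (adjusted p 0.0508 to 0.120). FLT1, a receptor of VEGF, fell from 1002 to 1080 on the controls to 236 to 249 on the treated arrays. With APLNR, 3 of 25 tested vascular genes were higher (12.0%) and 1 lower; the median was 0.07.

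Metabolic and transport genes came on singly. CBR1, a carbonyl reductase, had 2.71, 11.3 and 4.03 on the control arrays and 150.1, 167 and 440.4 on the treated arrays (log2 fold change 3.47 ± 0.36, adjusted p = 0.00190; at least 3.22-fold), and treated array 3 was brightest (3.01 on the log2 scale without it, adjusted p = 0.00103). CYP1B1, a cytochrome that oxidises steroids and aromatic compounds, rose by 1.65 ± 0.31 (adjusted p = 0.0459) and lost its call without any 1 control array, treated array 2 or 3 or any 1 S9 array (adjusted p 0.0641 to 0.164); these were 2 of 105 carbonyl, aldehyde and drug-metabolising enzymes (1.90%). ENPP2, autotaxin, the secreted enzyme that makes lysophosphatidic acid, had 60.4, 63.8 and 52.4 on the control arrays and 485, 658 and 558 on the treated arrays (log2 fold change 2.95 ± 0.19, adjusted p = 8.54e-05; at least 8.13-fold), with little spread in either group. ENPP2 and GPAT2 were the 2 higher of 112 lipid genes (1.79%; 5 with the block). SLC40A1, the iron exporter ferroportin, had 31.8, 36.5 and 30.9 on the control arrays and 121, 274 and 237 on the treated arrays (log2 fold change 2.14 ± 0.27, adjusted p = 0.00662; at least 2.88-fold), and it was the only called gene of 250 solute carriers (0.400%). ATP10D, a lipid flippase, was switched on at 2.14 ± 0.33 (adjusted p = 0.0201; at least 2.65-fold), a call lost without control array 2 or 3 or treated array 1 or 2 (adjusted p 0.0692 to 0.0865). GDA, guanine deaminase, and COX7A1, a muscle form of a cytochrome oxidase subunit, came on at low level, at 1.12 ± 0.21 (adjusted p = 0.0497; at least 1.34-fold) and 1.83 ± 0.25 (adjusted p = 0.0108; at least 1.79-fold). GDA lost its call without any 1 control array, any 1 treated array or S9 array 2 or 3 (adjusted p 0.0551 to 0.191), and COX7A1 without treated array 2 (adjusted p 0.0567). HSPB2, a small heat shock protein of muscle, had 7.12, 34.6 and 25.2 on the control arrays and 156, 175 and 155 on the treated arrays. HSPB2 rose by 2.29 ± 0.29 on the log2 scale (adjusted p = 0.00620; at least 2.33-fold).

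Few chromatin genes were called. MACROH2A2, a macroH2A histone variant of repressed chromatin, had 317, 479 and 222 on the control arrays and 1274, 1189.7 and 1097 on the treated arrays (log2 fold change 1.82 ± 0.26, adjusted p = 0.0126) and lost its call without control array 1 or treated array 1 or 2 (adjusted p 0.0527 to 0.0585). ASXL1, partner of the deubiquitinase BAP1 that removes ubiquitin from histone H2A, had 285, 311 and 286 on the control arrays and 768, 684 and 881 on the treated arrays (log2 fold change 1.35 ± 0.24, adjusted p = 0.0405), with 6 probe sets between 0.52 and 1.47, and lost its call without any 1 control array, any 1 treated array or S9 array 1 (adjusted p 0.0736 to 0.138). These were the only calls of 24 histone genes (4.17%) and of 37 Polycomb subunits (2.70%). The targets of the compounds were measured but not called: EZH2 had 1162, 1015 and 1609 on the control arrays and 1289.7, 1313 and 2619 on the treated arrays. EZH2 differed by 0.40 ± 0.31 on the log2 scale (adjusted p = 0.826). AHCY had 7403, 6830.5 and 6232 on the control arrays and 8385, 8929 and 7264 on the treated arrays. AHCY differed by 0.26 ± 0.22 on the log2 scale (adjusted p = 0.852). HDAC1 had 9679, 9021 and 7101 on the control arrays and 10111, 11397 and 9327 on the treated arrays. HDAC1 differed by 0.26 ± 0.21 on the log2 scale (adjusted p = 0.827). The EZH2 and HDAC1 groups overlapped, and so did those of AHCY. The signals are RNA levels, and neither enzyme activity nor protein was measured. None of 48 deacetylase, sirtuin and corepressor genes was called by limma, none passed an unadjusted p under 0.05, and their median was 0.05. None of 22 DNA methyltransferase, UHRF and TET genes was called without the block, and 3 were higher at an unadjusted p under 0.05. At least 2-fold higher were 3 of the 22, as were 406 of all 13518 tested genes. With the block 1 was called, UHRF1 (log2 fold change 1.37, adjusted p = 0.0127), named after its values were seen. Without the block DNMT3L, the DNMT3 cofactor of germ cells, came nearest, with 141, 112 and 78.9 on the control arrays and 326, 205 and 562 on the treated arrays. DNMT3L differed by 1.50 ± 0.34 on the log2 scale (adjusted p = 0.104).

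General growth and stress programmes had no calls by limma. This held for 46 DNA replication and mitosis genes (median -0.09; 14 of 46 positive; 1 lower at an unadjusted p under 0.05) and 33 cell cycle inhibitors and p53 targets (0.004; 17 positive; 1 higher, 2 lower). It held for 33 apoptosis genes (0.08; 23 positive; 1 higher, 1 lower) and 41 endoplasmic reticulum and oxidative stress genes (-0.02; 17 positive; 1 higher, 1 lower). Of 60 ribosomal protein genes (-0.19) 6 were positive and none passed an unadjusted p under 0.05. The other lists were 29 glycolysis genes (-0.03; 12 positive; 2 higher), 24 cholesterol genes (-0.02; 5 positive; 1 higher), 24 fatty acid oxidation genes (-0.03; 12 positive; 2 higher) and 24 methionine cycle genes (-0.06; 11 positive; 4 lower). With the block and with a trended, robust prior these 9 lists also had none. The imprinted genes had 2 of 32 higher (6.25%; median 0.04), NNAT among them. DLK1, another imprinted gene, had 2802, 2795 and 309.9 on the control arrays and 11611, 9037 and 3047 on the treated arrays. DLK1 differed by 2.32 ± 0.83 on the log2 scale (adjusted p = 0.347). Each treated array was above its same-numbered control, control array 3 was far below the other controls, and the change did not pass.

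Long noncoding RNAs, pseudogenes and a few further genes were also called higher. LINC00261, a long noncoding RNA that neighbours FOXA2 in the genome, was switched on, with 42.5, 61.7 and 48.4 on the control arrays and 336, 422 and 510.0 on the treated arrays. LINC00261 rose by 2.71 ± 0.20 on the log2 scale (adjusted p = 0.000271; at least 6.02-fold). LINC00458, a noncoding RNA of stem cells, had 567, 758 and 301 on the control arrays and 2644, 2306 and 10473 on the treated arrays (log2 fold change 2.94 ± 0.54, adjusted p = 0.0445); treated array 3 was about 4 times the others (2.25 on the log2 scale without it, adjusted p = 0.0310), the call was lost without any 1 control array, treated array 1 or 2 or any 1 S9 array (adjusted p 0.0562 to 0.131), and the block gave 0.0720. LINC02582 (2.16 ± 0.27, adjusted p = 0.00620; at least 1.46-fold) and TMEM132C, a transmembrane protein (2.59 ± 0.34, adjusted p = 0.00841; at least 1.67-fold), came on just above the median. LINC00654, FAM221A and the pseudogenes TPTE2P6 and SEC1P were switched on at 1.80, 1.85, 1.55 and 1.51 (at least 2.80, 2.15, 2.21 and 1.59-fold). LINC00654 lost its call without any 1 control array, any 1 treated array or S9 array 3 (adjusted p 0.0503 to 0.152), FAM221A without control array 2 or 3, any 1 treated array or any 1 S9 array (adjusted p 0.0503 to 0.127), TPTE2P6 without control array 1 or 3 or any 1 treated array (adjusted p 0.0561 to 0.109) and SEC1P without any 1 control array, any 1 treated array or S9 array 1 (adjusted p 0.0639 to 0.119). ASTE1, a homologue of the fly gene asteroid, had 2.23, 5.26 and 2.42 on the control arrays and 186, 264 and 197 on the treated arrays (log2 fold change 3.57 ± 0.28, adjusted p = 0.000357; at least 3.08-fold), with no overlap of the groups. TBC1D15, a Rab GTPase regulator, rose by 3.04 ± 0.48 (adjusted p = 0.0220), a call lost without treated array 1 or 2 or S9 array 1 or 2 (adjusted p 0.0508 to 0.0890). Genes with placeholder names numbered 12 higher of 1009 (1.19%) and 1 lower, with a median log2 fold change of -0.002. Of all tested genes 0.747% were higher. At the level of probe sets, 80 of 29325 were higher (0.273%) and 8 lower (0.0273%), and 6 of the 80 have no gene in the annotation. One of these, 237911_at, had the largest rise of any probe set, with signals of 81.9, 87.0 and 230 on the control arrays and 5123, 6312 and 4627 on the treated arrays (log2 fold change 5.30 ± 0.38, adjusted p = 0.000518 over probe sets); it was named after its values were seen.

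The 13 falls are described from the largest down. MBD3L2, a relative of the methyl-binding domain protein MBD3, had 167, 184 and 271 on the control arrays and 4.57, 7.86 and 6.28 on the treated arrays. Of 17 tested cleavage-stage and naive-state genes it was the 1 lower, and DPPA5 was the 1 higher (5.88%). MBD3L2 fell by 3.30 ± 0.20 on the log2 scale (adjusted p = 6.83e-05; at least 2.71-fold lower). It was above background on all controls and below the median on all treated arrays, 1 of 4 genes switched off (0.0296% of those tested), and its fitted change was -4.84 with 1 added and -1.93 with 64. GRPR, the receptor of gastrin-releasing peptide, had 901, 832 and 496 on the control arrays and 135, 135 and 147 on the treated arrays. GRPR fell by 2.25 ± 0.23 on the log2 scale (adjusted p = 0.00178). ADAMTS8, a secreted metalloprotease, had 573, 504 and 416 on the control arrays and 137, 58.0 and 117 on the treated arrays. ADAMTS8 fell by 2.15 ± 0.26 on the log2 scale (adjusted p = 0.00570). FLT1 had 1002, 1075 and 1080.2 on the control arrays and 236, 243 and 249 on the treated arrays. FLT1 fell by 2.05 ± 0.16 on the log2 scale (adjusted p = 0.000324). The groups are far apart for these 4, and their calls held without each array in turn. Of the 4 FLT1 probe sets 3 were called lower (-2.05, -1.76 and -1.69) and the dimmest was at 0.19. The other genes switched off were ART3, an ADP-ribosyltransferase family member (log2 fold change -1.92 ± 0.30, adjusted p = 0.0201; at least 1.35-fold lower), EVA1C, a membrane receptor of SLIT proteins (log2 fold change -1.62 ± 0.25, adjusted p = 0.0213; at least 1.88-fold lower), and PCDHB16, a clustered protocadherin (log2 fold change -1.44 ± 0.23, adjusted p = 0.0213; at least 1.37-fold lower). ART3 lost its call without any 1 control array or treated array 1 (adjusted p 0.0647 to 0.0807), EVA1C without control array 2 or 3 or any 1 treated array (adjusted p 0.0571 to 0.0992) and PCDHB16 without control array 1 or 2 or treated array 2 (adjusted p 0.0799 to 0.0996).

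The remaining 6 falls kept signal above or around background. GPR176, an orphan receptor, had 3657, 4258 and 3433 on the control arrays and 1451, 1559 and 993 on the treated arrays. GPR176 fell by 1.51 ± 0.28 on the log2 scale (adjusted p = 0.0456). OPN3, a non-visual opsin, had 1105, 1114 and 1078 on the control arrays and 569, 470.1 and 460.1 on the treated arrays. OPN3 fell by 1.12 ± 0.21 on the log2 scale (adjusted p = 0.0445). CFAP95, a cilium protein, fell by 1.45 and NALF1, a subunit of the NALCN sodium leak channel, by 1.40 on the log2 scale (adjusted p = 0.0297 and 0.0360). SYNJ2, a phosphoinositide phosphatase, fell by 1.07 and FAM110C by 1.06 (adjusted p = 0.0405 and 0.0459). All 6 calls depend on single arrays. GPR176 lost its call without any 1 control array, any 1 treated array or S9 array 2 (adjusted p 0.0743 to 0.162), OPN3 without any 1 control array, any 1 treated array or S9 array 1 (adjusted p 0.0778 to 0.178) and CFAP95 without any 1 control array, treated array 1 or S9 array 1 or 2 (adjusted p 0.0508 to 0.102). NALF1 lost it without any 1 control array, any 1 treated array or S9 array 1 or 2 (adjusted p 0.0504 to 0.121), SYNJ2 without any 1 control array, treated array 1 or 2 or S9 array 1 or 2 (adjusted p 0.0559 to 0.176) and FAM110C without any 1 control array, any 1 treated array or S9 array 1 or 2 (adjusted p 0.0518 to 0.185). With the block OPN3 had an adjusted p of 0.0524 and FAM110C of 0.0555. GRPR and GPR176 were the 2 lower of 107 G protein-coupled receptors (1.87%, against 0.0962% of all tested genes), and APLNR the 1 higher (0.935%, against 0.747%).

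**Figure D5:**
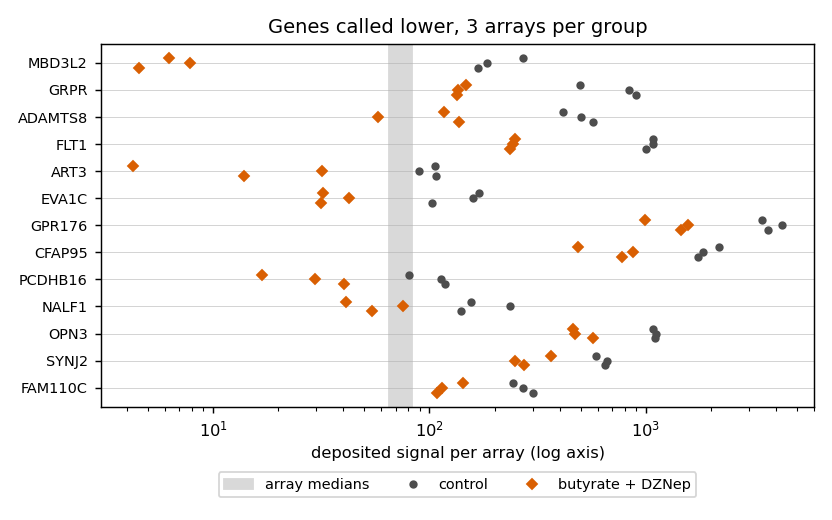
Deposited signal on each array (log axis) of the 13 genes called lower, ordered by log2 fold change; grey circles are the 3 control arrays, orange diamonds the 3 treated arrays, and the grey band the range of the 6 array medians. MBD3L2 falls from 167 to 271 on the controls to 4.57 to 7.86 on the treated arrays, and the treated FLT1 signals lie within 236 to 249.

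The brightest treated array differed between genes. Treated array 3 was the brightest of the 3 in 48 of the 101 rises, treated array 2 in 42 and treated array 1 in 11. Without treated array 2 the count of rises was 46. Of the 34 higher genes with more than 1 kept probe set, 21 had all of them at least 2-fold higher and 5 had at least 1 at or under 0, among them PAX3, EPHA4 and PRDM1. The switched-on genes were also bright in HSF-6(S9) cells given both compounds: 36 of the 41 were above the median on all 3 of those arrays, the exceptions being COX7A1, GDA, RBM46, TMEM132C and ZFP3. ZNF682 had signals of 575, 557 and 1130 there, BEX5 544, 504 and 600, and GPAT2 250, 411 and 396. Since there are no untreated HSF-6(S9) arrays, and since these arrays share the filter and the fit, this is a level and not a second test of the response.

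A further 27 genes were called higher outside the rule for named genes and are listed here by name after their values were seen. They include the AKT cofactor TCL1A, the testis peptidase DPEP3, the phosphatase and transcription factor EYA1, dystrophin (DMD), the nuclear envelope protein SYNE1, the clotting inhibitor TFPI, the scavenger receptor COLEC12, the centrosome protein SDCCAG8, the RNA-binding protein RBM24 and the GTPase regulators DLC1, VAV1 and RIN2. EPSTI1, SLFN13, TSPAN7, CHODL, SMPDL3A, GLB1L, TCIM, CR1L, CEBPZOS, C5orf58, C5orf63, C2orf74-DT, KRT10-AS1, LINC00479 and LINC00698 make up the rest. Of the 27, 4 were called without each of the 9 arrays in turn: C2orf74-DT, CR1L, TCL1A and SDCCAG8. The 3 kept probe sets of SDCCAG8 ranged from -0.49 to 2.11 on the log2 scale, and the 5 of TFPI from -0.44 to 2.54. The other 23 lost their call without at least 1 array, and DPEP3, COLEC12, TSPAN7, CHODL and LINC00698 in 8 of the 9 fits. With the block EYA1 had an adjusted p of 0.0600, TSPAN7 of 0.0557 and LINC00479 of 0.0625.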

How the data were processed

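Total RNA, amplified with the MessageAmp Premier kit and biotin-labelled per the labels, was measured on human Affymetrix arrays. The deposited values are MAS5 signal intensity per probe set, linear, made by the authors with Affymetrix Expression Console per the submitters' processing notes, versions being not given in the sources used here. The method subtracts mismatch signal and scales each array, so values under the median are unreliable and a global shift cannot be seen. Of 54613 probe sets that are not array controls, 41091 name a single gene, 1801 several and 11721 none; 41037 were matched to current symbols by Entrez number.

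Probe sets above the array's own median on 3 or more of the 9 arrays were tested (29325 probe sets, 13518 genes by the brightest kept probe set). After adding 16, log2 values of all 9 arrays, in 3 groups, were fitted with limma 3.58.1 (R 4.3.3, lmFit and eBayes, 6 residual and 3.50 prior degrees of freedom); p-values are two-sided and Benjamini-Hochberg adjusted over all genes, or over all probe sets for probe sets. Errors after ± are standard errors of log2 fold changes unless marked SD. The fit was tested on simulated data.

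The members, the 64 lists and the tests were chosen with earlier results of these data known. Named were all genes switched on or off, the 20 largest rises and all falls without overlap, up to 4 called members of each list or else the largest change, and SOX2, NANOG, LIN28B, DPPA4, EZH2, AHCY and HDAC1. After removing group means, same-numbered control and treated arrays correlated at r = 0.206, 0.257 and 0.488 over genes. The array number, taken from the prime marks of the titles, was therefore also fitted as a block. Arrays 1 and 2 correlated as much across numbers (0.262 and 0.315). Array 3 of each of these groups correlated at -0.376 to -0.307 with arrays 1 and 2 of the other. The 18S ribosomal RNA control signal was highest on array 3 in every group. It was 513, 356 and 1194 on the controls, 369, 381 and 723 on the treated arrays and 316, 433 and 2149 on the S9 arrays. The cause was not tested. Alternatives were the constant, a floor, filters, the probe set rule, quantile normalization, fewer arrays, the block, a trended robust prior and leaving out each array.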

Additional observations from a re-analysis of the deposited data

How the results depend on the processing

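The main counts were 101 genes higher, 13 lower, 41 switched on and 4 switched off, and 80 probe sets higher and 8 lower. With 1 in place of 16 added, 5 probe sets were lower; with values floored at the array median, 22 genes were switched on and 2 off. Without a filter 48 probe sets were higher and 5 lower; a 75th percentile filter tests fewer genes and gave 54 genes higher, 9 switched on, 0 switched off of 11 lower and 43 and 5 probe sets. Averaging the kept probe sets of each gene gave 8 lower. The 6 HSF-6(8) arrays alone gave 2 switched off and 51 and 3 probe sets; only the first and second arrays gave 21 genes lower and 39 probe sets higher. With the replicate block, 24 genes were lower, 7 switched off, and 132 and 16 probe sets were called; a trended robust prior gave 1 switched off. The cause of these shifts was not tested. Leaving out 1 array at a time gave 46 to 102 genes higher, 4 to 30 lower, 27 to 38 switched on, 1 to 8 switched off, 36 to 104 probe sets higher and 3 to 12 lower; the fewest rises came without treated array 2 and the most falls without treated array 3. Other combinations stayed within 1.5 times the main count. Of 87 called genes among the 119 named, none reversed under any alternative, but many lost their call. The array-number block ended 6 of their calls and changed no other. Using only the first and second arrays ended 46, and leaving out treated array 2 ended 43. Testing without a filter ended 29, and the 6 HSF-6(8) arrays alone ended 26. The 75th percentile filter tested 39 of the 87 and kept all 39. The uncalled LIN28B had a log2 fold change of 0.048 without treated array 3 and -0.15 without control array 3.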
